A study of Mus musculus with 6 samples.

Results

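The genes described here encode 10 secreted acute phase proteins of mouse plasma: the serum amyloid A genes *Saa1*, *Saa2*, *Saa3* and *Saa4*, lipocalin 2 (*Lcn2*), the orosomucoids *Orm1* and *Orm2*, haptoglobin (*Hp*), hemopexin (*Hpx*) and serum amyloid P (*Apcs*). They were taken by symbol from the 55487 genes of the count tables, and all 10 were matched and passed the filter on low counts. RNA sequencing was done on hepatocytes, the liver cells that make most plasma proteins, from mice 6 to 8 weeks old. The groups were wild type (WT) and homozygous AEG-1-C75S (C75S), with 3 libraries each, bred by mating heterozygotes. AEG-1 is a membrane protein of the endoplasmic reticulum encoded by *Mtdh*, and C75S puts a serine in place of the cysteine that carries its palmitoyl group. All 6 libraries have the treatment label Control, and RNA was taken 48 h after the cells were isolated. Whether the libraries within a group stem from different mice is not stated in the labels. Here n is the number of libraries, and p-values measure only the spread between libraries, which may be technical.

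Acute phase proteins are plasma proteins whose synthesis by the liver changes during infection, injury and inflammation. Interleukin-6 acts through STAT3, and interleukin-1 and tumour necrosis factor act through NF-kB, together with C/EBP factors, to drive their transcription in hepatocytes. Serum amyloid A1 and A2 are the strongly induced forms carried on high-density lipoprotein, SAA3 is an inducible form also made outside the liver, and SAA4 is the constitutive form.

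*Saa1*, *Saa2*, *Saa3* and *Saa4* lie together on chromosome 7 of GRCm38, between positions 46711998 and 46754313. *Saa3* spans 46711998 to 46715700, *Saa4* 46727998 to 46732603 and *Saa1* 46740497 to 46742980, all on the minus strand, and *Saa2* spans 46751790 to 46754313 on the plus strand. *Saa1* and *Saa2* are close copies, which bears on how reads can be told apart. Their coding sequences in GENCODE M21 have 366 bases each without the stop codon. The stretch of 287 bases from coding base 73 to 359, counted from the start codon, holds all 18 differences, which are in capitals.

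Saa1 coding sequence: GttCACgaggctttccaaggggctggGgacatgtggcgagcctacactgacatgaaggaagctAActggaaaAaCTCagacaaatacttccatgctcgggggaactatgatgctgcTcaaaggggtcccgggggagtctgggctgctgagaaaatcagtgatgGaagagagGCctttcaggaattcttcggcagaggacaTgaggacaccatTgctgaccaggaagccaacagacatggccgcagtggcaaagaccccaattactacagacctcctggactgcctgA

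Saa2 coding sequence: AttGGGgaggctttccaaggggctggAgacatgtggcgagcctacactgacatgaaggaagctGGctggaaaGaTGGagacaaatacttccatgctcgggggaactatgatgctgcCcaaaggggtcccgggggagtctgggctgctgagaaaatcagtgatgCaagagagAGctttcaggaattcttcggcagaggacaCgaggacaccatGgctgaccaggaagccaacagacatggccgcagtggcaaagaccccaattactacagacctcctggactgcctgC

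The coding sequences of *Saa1* and *Saa2* were 95.1% identical, those of *Saa1* and *Saa3* 74.3% and those of *Saa1* and *Saa4* 64.4%. The differences between *Saa1* and *Saa2* are spread along the sequence. Of all 50-base words in the main coding transcript, 85.2% of those of *Saa1* and 86.7% of those of *Saa2* occurred in no transcript of another gene. At 100 bases, every word of *Saa1*, *Saa2*, *Saa3* and *Saa4* was unique among annotated transcripts. The orosomucoids were less separable, with 79.6% (*Orm1*) and 77.3% (*Orm2*) of 50-base words and 93.0% of 100-base words unique to each gene. *Lcn2*, *Hp*, *Hpx* and *Apcs* had 100% unique words at both lengths. Read length is not given in the sources used here, and reads that mapped to several places were not counted to any gene.

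Since *Saa1*, *Saa2* and *Saa3* were higher in C75S and *Saa4* was not, the 250 bases before the RefSeq start of each are shown 5′ to 3′ on the gene's strand (GRCm38.p6). Capitals mark matches to the C/EBP motif, spelled TTNNGNAA and searched on both strands.

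Saa1, chr7:46742981-46743230, minus strand: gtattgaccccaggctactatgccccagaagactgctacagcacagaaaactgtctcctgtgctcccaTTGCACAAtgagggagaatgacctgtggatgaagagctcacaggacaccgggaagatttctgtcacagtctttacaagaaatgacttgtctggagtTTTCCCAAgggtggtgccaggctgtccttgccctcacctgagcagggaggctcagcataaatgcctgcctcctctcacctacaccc

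Saa2, chr7:46751583-46751832, plus strand: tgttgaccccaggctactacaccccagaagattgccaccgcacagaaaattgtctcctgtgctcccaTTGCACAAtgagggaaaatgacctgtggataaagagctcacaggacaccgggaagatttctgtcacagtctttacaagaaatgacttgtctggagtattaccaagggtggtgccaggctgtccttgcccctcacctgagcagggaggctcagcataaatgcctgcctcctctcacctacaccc

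Saa3, chr7:46715677-46715926, minus strand: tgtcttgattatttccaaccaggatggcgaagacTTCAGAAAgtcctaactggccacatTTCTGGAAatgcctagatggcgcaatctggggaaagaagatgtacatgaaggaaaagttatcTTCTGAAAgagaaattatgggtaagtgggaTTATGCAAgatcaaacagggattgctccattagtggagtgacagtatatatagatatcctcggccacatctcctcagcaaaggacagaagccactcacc

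Saa4, chr7:46732604-46732853, minus strand: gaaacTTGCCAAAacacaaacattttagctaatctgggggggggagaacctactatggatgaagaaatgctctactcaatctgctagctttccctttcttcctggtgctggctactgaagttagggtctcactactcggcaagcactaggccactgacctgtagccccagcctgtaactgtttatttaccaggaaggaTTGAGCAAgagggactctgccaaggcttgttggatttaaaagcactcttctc

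The upstream sequences of *Saa1* and *Saa2* were 94.8% identical, against 48.2% for *Saa1* and *Saa3* and 42.3% for *Saa1* and *Saa4*. *Saa1* had 2 C/EBP matches, beginning at -182 and -86 from the start, and *Saa2* had 1, at -183. *Saa3* had 4 matches and *Saa4* had 2. A C/EBP match was present in 7 of the 8 members with a promoter in the table, and in 36.8% of all 32817 promoters. The STAT motif TTCNNNGAA was found in 1 of the 8 (*Apcs*) and in 7.01% of all promoters. For *Apcs* alone, the bases just after the RefSeq start were not found in a GENCODE M21 transcript of the gene. The NF-kB consensus was found in 0 of the 8 and in 3.90% of all promoters. These matches describe letters in a short window and show no binding.

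The libraries held 16944723 to 21044292 counts on genes, and 3 counts were worth 0.143 to 0.177 CPM, the unit of counts per 1000000 scaled counts. Levels below are CPM on TMM-scaled library sizes. Fold changes are C75S against WT from edgeR's quasi-likelihood test, with p-values adjusted by Benjamini-Hochberg over all 12741 tested genes and a threshold of 0.05. Of hepatocyte markers all 10 were tested, with a summed level of 8430 to 10580 CPM in C75S and 9802 to 11200 CPM in WT. Neutrophil markers summed to 0 in all C75S libraries and to 0.0487 to 0.142 CPM in WT. Of these 8 markers, 5 were at 0 in all libraries, *S100a8* and *S100a9* among them. The Kupffer cell and macrophage markers summed to 96.4 to 140.2 CPM in C75S and 103 to 135 CPM in WT, nearly all from *Cd68*. Of the other Kupffer cell and macrophage markers, *Csf1r* had 14 to 27 counts a library in C75S and 13 to 24 in WT. *Marco* had 6 counts in each C75S library and 0 to 2 in WT, while *C1qa* had 2 to 5 in C75S and 5 to 18 in WT. *Adgre1*, *Clec4f*, *Cd5l*, *Vsig4*, *Lyz2* and *Timd4* had at most 5 counts in any library, and *Adgre1* and *Clec4f* were at 0 in every C75S library. Endothelial markers summed to 27.0 to 37.5 CPM in C75S and 25.2 to 37.5 CPM in WT, a sum mostly of *Stab2* (24.9 ± 4.88 and 26.4 ± 5.75 CPM). Of the 4 endothelial markers tested, the other 3 had all C75S libraries above all WT libraries, as did 9.02% of all tested genes. These 3 had few counts. *Pecam1* was at 3.19 ± 0.53 and 1.97 ± 0.75 CPM (24 to 71 counts a library). *Lyve1* was at 2.47 ± 0.47 and 1.36 ± 0.26 (24 to 52 counts), and *Kdr* at 0.91 ± 0.16 and 0.56 ± 0.13 (10 to 20 counts). None of the 4 was called by edgeR, DESeq2 or limma-voom, and the median log2 fold change was 0.69. Of the 4, 2 had an unadjusted edgeR p-value under 0.05, against 13.4% of all tested genes. Stellate markers summed to 53.4 to 70.3 CPM in C75S and 68.6 to 91.6 CPM in WT, nearly all from *Reln*. *Reln* was at 58.7 ± 8.70 and 75.2 ± 11.55 CPM with overlapping groups (edgeR adjusted p = 0.394). Also tested were *Rgs5* (1.55 ± 0.17 and 1.30 ± 0.17 CPM) and *Dcn* (1.40 ± 0.60 and 1.53 ± 0.32 CPM), and neither was called. *Lrat*, *Des* and *Pdgfrb* had at most 13 counts in any library. Cholangiocyte markers summed to 144 to 197 CPM in C75S, against 122 to 133 in WT, with *Spp1* at 131 ± 25.8 and 90.99 ± 6.43 CPM (edgeR adjusted p = 0.235). *Krt19*, a keratin of bile duct cells, was called by all 3 tools, at 9.52 ± 1.22 CPM in C75S and 5.47 ± 0.26 in WT (log2 fold change 0.80, edgeR adjusted p = 0.00151). *Spp1* also had all C75S libraries above all WT libraries, as did 9.02% of all tested genes. Its log2 fold change was 0.53, and limma-voom called it higher, but edgeR and DESeq2 did not. *Sox9* (28.5 ± 0.57 and 29.7 ± 2.00 CPM) and *Krt7* (1.05 ± 0.73 and 0.76 ± 0.46 CPM) overlapped between groups. *Epcam*, too low to be tested, had 0 to 2 counts a library in C75S and 3 to 12 in WT. The part of endothelial and cholangiocyte markers in the results was not tested. In bulk RNA, fewer cells of a type and less RNA per cell cannot be told apart.

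Per kilobase of the main coding transcript, the members covered a wide range in WT hepatocytes. *Hpx*, the plasma carrier of free heme, stood highest at 5436 ± 37.2 CPM per kb (mean ± SD, n = 3). *Hp*, which binds free hemoglobin, followed at 2257 ± 115, *Lcn2*, which binds bacterial siderophores, at 1580 ± 98.4 and *Orm1*, a carrier of basic and neutral drugs and lipids, at 1087 ± 66.0 CPM per kb. *Saa1* had 559 ± 29.5, *Saa2* 269 ± 9.37, *Orm2* 106 ± 2.46 and *Apcs* 71.3 ± 4.0 CPM per kb. *Saa4* at 26.0 ± 3.47 and *Saa3* at 23.5 ± 2.43 CPM per kb came last. In this order neighbours did not overlap across WT libraries, except *Saa4* and *Saa3*. In C75S the last places were exchanged, with *Saa3* at 39.5 ± 8.18 and *Saa4* at 21.5 ± 1.81 CPM per kb without overlap. The order of these 2 rests on the transcript lengths used, 555 bases for *Saa3* and 2094 for *Saa4*. In CPM without length, *Saa4* was above *Saa3* in both groups, at 45.0 and 21.9 in C75S and 54.5 and 13.1 in WT. *Hp* and *Lcn2* overlapped in C75S, at 2218 ± 247 and 1868 ± 147 CPM per kb.

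**Figure D1:**
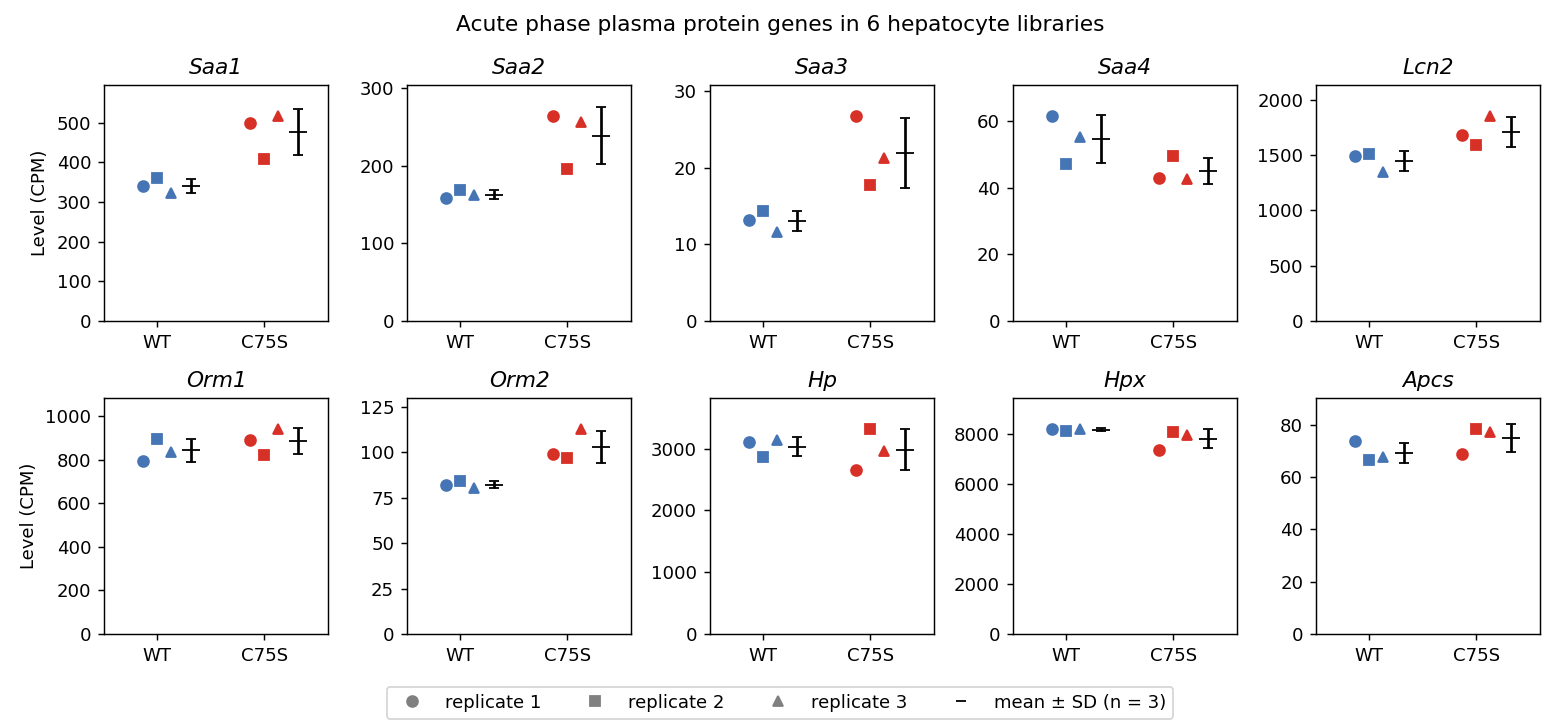
Level in CPM (vertical axis, starting at 0) of each of the 10 genes in WT (blue) and C75S (red) libraries, with one symbol per replicate and the mean ± SD beside them. For Saa1, Saa2, Saa3, Lcn2 and Orm2 every C75S library lies above every WT library, and Hpx is the gene with all C75S libraries below WT.

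Of the 10 genes, 5 were higher in C75S by the adjusted p-value: *Saa1*, *Saa2*, *Saa3*, *Lcn2* and *Orm2*. None was lower, and 6 had an unadjusted p-value under 0.05, against 13.4% of all tested genes. DESeq2 and limma-voom each called 5 higher and 0 lower. Over all tested genes 3.11% were called, 1.74% as higher and 1.37% as lower. The median log2 fold change was 0.18 over the 10 genes and -0.003 over all tested genes. The groups did not overlap for 5 genes with C75S above and 1 with C75S below, against 9.02% and 8.96% of all tested genes.

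**Figure D2:**
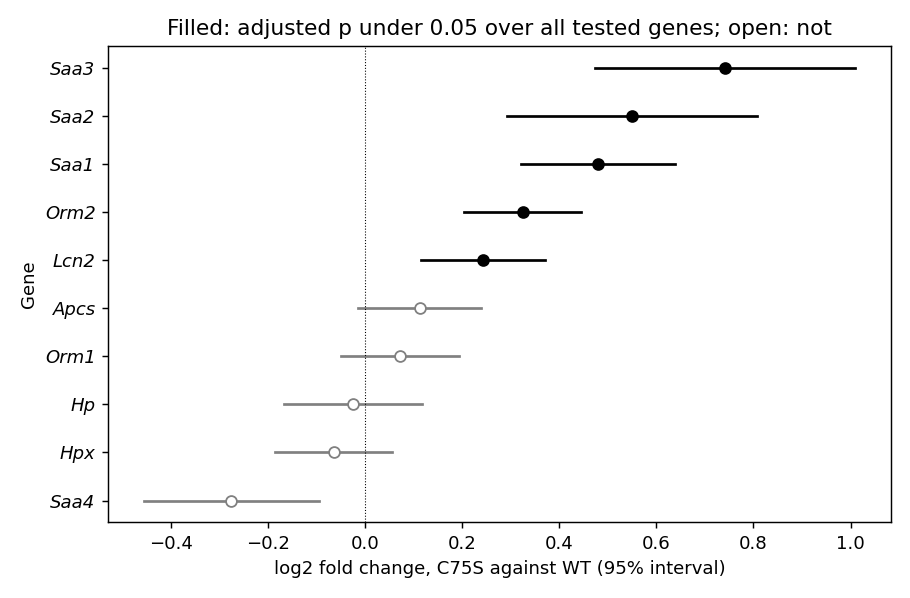
Log2 fold change of C75S against WT (horizontal axis) for each gene (vertical axis), with its 95% interval. Filled points passed an adjusted p of 0.05 over all tested genes. Saa3 is the largest at 0.74, and Saa4 is the lowest at -0.28 and open.

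Among the serum amyloid A genes, *Saa1* (ENSMUSG00000074115) had 499.8, 409 and 517 CPM in C75S replicates 1, 2 and 3, and 339, 359 and 323 CPM in the WT replicates. All C75S values lay above all WT values, and C75S replicate 2 was the lowest of its group. The log2 fold change was 0.48 (SE 0.07, edgeR adjusted p = 0.00154), which is 39.5% higher. *Saa2* (ENSMUSG00000057465) had 264, 196 and 256 CPM in C75S and 158, 169 and 162 CPM in WT. Again the groups were apart and C75S replicate 2 was nearest to WT. Its log2 fold change was 0.55 (SE 0.11), with an edgeR adjusted p of 0.0469, close to the threshold. This call was lost without WT replicate 1 (0.203), WT replicate 2 (0.076) or WT replicate 3 (0.244), with upper-quartile scaling (0.0601) and with library-size scaling (0.0529). The call was also lost with replicate number as a further term (0.062). The direction of *Saa2* held in those 6 fits, with log2 fold changes from 0.53 to 0.58.

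Because the split between these copies is uncertain, their counts were also summed. *Saa1* plus *Saa2* came to 764, 605 and 773 CPM in C75S and 497, 528 and 485 CPM in WT. The sum was higher in C75S by 0.50 on the log2 scale (SE 0.08, edgeR adjusted p = 0.00206), or 41.8%. *Saa1* made up 65.4%, 67.6% and 66.9% of the summed counts in C75S and 68.2%, 68.0% and 66.7% in WT. The mean share of the C75S libraries was 66.6% ± 1.12 and that of the WT libraries 67.6% ± 0.85 (mean ± SD, n = 3). A two-sided exact permutation test gave p = 0.3, where 0.1 is the smallest possible. In a single library the exact binomial 95% interval of this share was, for example, 64.6% to 66.2% in C75S replicate 1, covering counting error only. The share did not differ beyond the spread between libraries.

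*Saa3* (ENSMUSG00000040026) had 26.8, 17.7 and 21.3 CPM in C75S and 13.2, 14.3 and 11.6 CPM in WT. C75S replicate 1 was the highest, and the groups did not overlap. Its change was the largest of the 10 genes, at 0.74 on the log2 scale (SE 0.13, edgeR adjusted p = 0.00174), or 67.2%. It rests on 240 to 466 counts a library, the fewest among them. *Saa4* (ENSMUSG00000040017) had 43.0, 49.3 and 42.6 CPM in C75S and 61.5, 47.0 and 55.0 CPM in WT. C75S replicate 2 lay above WT replicate 2, so the groups overlapped. Its log2 fold change was -0.28 (SE 0.09, 95% interval -0.46 to -0.10, edgeR adjusted p = 0.105). In 3 alternative fits *Saa4* was called lower: with C75S replicate 2 left out (-0.35, adjusted p = 0.037), with WT replicate 2 left out (-0.37, 0.0128) and with no filter beyond 1 count (-0.28, 0.00295). The fit without the filter gave *Saa1*, *Lcn2*, *Orm1*, *Hp* and *Hpx* the same SE of 0.051, against 0.058 to 0.074 in the main fit. Its p-values therefore follow the spread of single genes less closely.

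**Figure D3:**
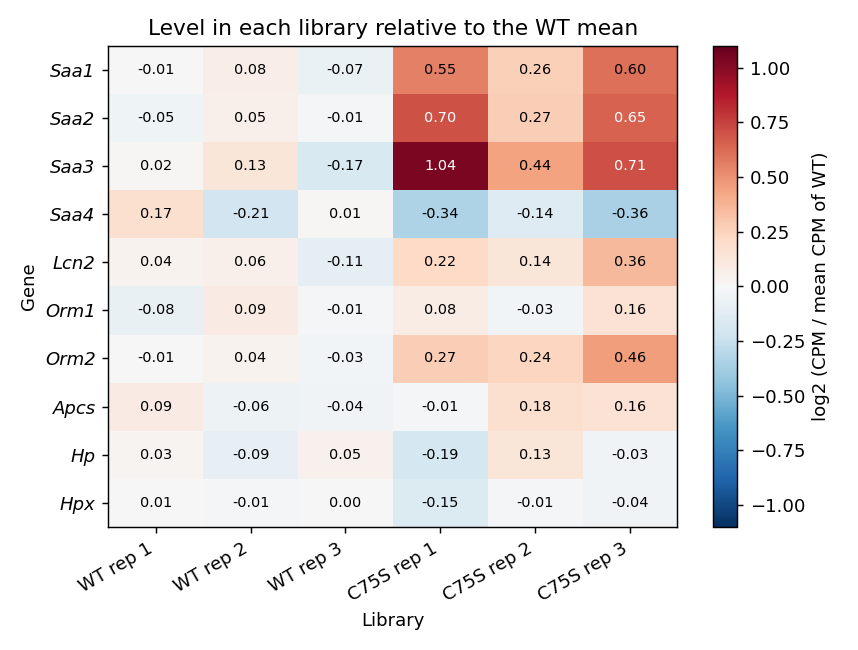
Level of each gene (rows) in each library (columns), as log2 of its CPM over the mean CPM of WT, with red above and blue below. C75S replicate 1 reaches 1.04 for Saa3 while C75S replicate 2 has 0.44, and Saa4 is below the WT mean in all C75S libraries.

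*Lcn2* (ENSMUSG00000026822, chromosome 2, 32384633 to 32388252, minus strand) had 1684, 1589.7 and 1854 CPM in C75S and 1489, 1505 and 1342 CPM in WT. All C75S libraries were above all WT libraries, by a narrow margin in C75S replicate 2. The log2 fold change was 0.24 (SE 0.06, edgeR adjusted p = 0.029), or 18.3%. Leaving out C75S replicate 3 ended the call (adjusted p = 0.172), as did leaving out WT replicate 1 (0.0512), WT replicate 2 (0.0772) or WT replicate 3 (0.19).

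The orosomucoids, acidic glycoproteins that bind small molecules in plasma, lie side by side on the plus strand of chromosome 4. *Orm1* (ENSMUSG00000039196, 63344560 to 63348163) had 890.3, 824 and 943 CPM in C75S and 795, 896 and 836 CPM in WT, so its groups overlapped. Its log2 fold change was 0.07 (SE 0.06, 95% interval -0.05 to 0.19, edgeR adjusted p = 0.659). *Orm2* (ENSMUSG00000061540, 63362449 to 63365878) had 99.2, 97.0 and 113 CPM in C75S and 81.99, 84.4 and 80.6 CPM in WT. Those groups were apart, by 0.32 on the log2 scale (SE 0.06, edgeR adjusted p = 0.00136), or 25.2%. *Orm2* made up 10.03% to 10.72% of *Orm1* plus *Orm2* counts in C75S and 8.60% to 9.35% in WT (two-sided exact permutation p = 0.1, the smallest possible). The coding sequences of *Orm1* and *Orm2* were 89.9% identical, so the split of reads between them is uncertain. Summed with *Orm3*, the 3 orosomucoid genes differed by 0.10 on the log2 scale (SE 0.06, edgeR adjusted p = 0.518), a sum made up mostly of *Orm1*.

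Among the scavengers of hemoglobin and heme, neither gene passed the test. *Hp* (ENSMUSG00000031722, chromosome 8, 109575128 to 109579172, minus strand) had 2662, 3325 and 2963 CPM in C75S and 3102, 2859 and 3146 CPM in WT. The C75S libraries held both the lowest and the highest value. Its log2 fold change was -0.02 (SE 0.07, 95% interval -0.17 to 0.12, edgeR adjusted p = 0.925). *Hpx* (ENSMUSG00000030895, chromosome 7, 105591613 to 105600137, minus strand) had 7349.5, 8072.5 and 7951 CPM in C75S and 8195, 8086.5 and 8164 CPM in WT. Although the groups were apart, C75S replicate 2 lay just under WT replicate 2. The log2 fold change of *Hpx* was -0.06 (SE 0.06, 95% interval -0.19 to 0.06, edgeR adjusted p = 0.696).

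*Apcs* (ENSMUSG00000026542, chromosome 1, 172893961 to 172895041, minus strand) encodes serum amyloid P, a pentraxin and a main acute phase reactant of mice. It had 68.8, 78.5 and 77.2 CPM in C75S and 73.7, 66.6 and 67.5 CPM in WT, with overlap through C75S replicate 1. Its log2 fold change was 0.11 (SE 0.06, 95% interval -0.01 to 0.24, edgeR adjusted p = 0.456).

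Which libraries carried these values was examined by leaving out each in turn. *Saa1*, *Saa3* and *Orm2* stayed under an adjusted p of 0.05 in all 6 fits, with log2 fold changes of 0.42 to 0.58, 0.58 to 0.88 and 0.25 to 0.37. The number of the 10 genes called was 3 without WT replicate 1 and 3 without WT replicate 3, 4 without C75S replicate 3 or WT replicate 2, 5 without C75S replicate 1 and 6 without C75S replicate 2. These counts include *Saa4*, called lower without WT replicate 2 and without C75S replicate 2. All other calls were higher.

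**Figure D4:**
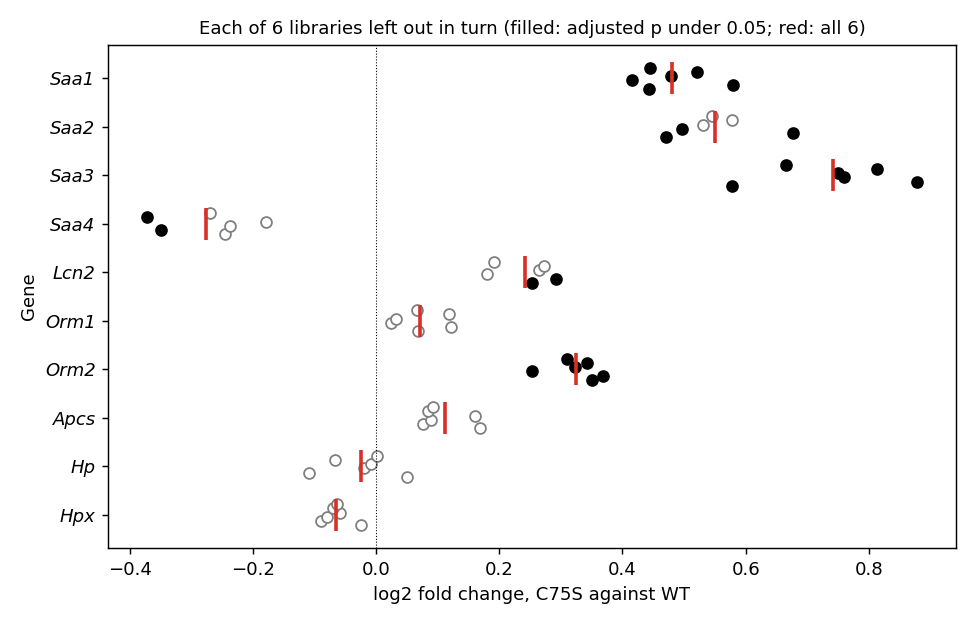
Log2 fold change of each gene (vertical axis) with each of the 6 libraries left out in turn (points, filled where the adjusted p was under 0.05) and with all 6 (red bar). Saa1, Saa3 and Orm2 are filled in every fit, while Saa2 and Lcn2 are filled in some.

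Other genes of the acute phase response were taken as lists. Of 20 other positive acute phase genes, all tested, 4 were higher in C75S and 0 were lower, against 1.74% and 1.37% of all tested genes. The median log2 fold change was 0.05, and 6 had an unadjusted p-value under 0.05 (13.4% over all tested genes). DESeq2 and limma-voom called the same 4. They included all 3 chains of fibrinogen, the clotting protein. *Fgg* had 348 ± 27.2 CPM in C75S, against 268 ± 11.1 in WT (log2 fold change 0.38, adjusted p = 0.000133), and *Fgb* at 1650 ± 98.5 and 1320 ± 53.6 CPM (0.32, adjusted p = 0.00112). *Fga* was at 478 ± 42.0 and 397 ± 16.2 CPM (0.27, adjusted p = 0.00852), but lost the call without C75S replicate 2 (0.078) or WT replicate 2 (0.10). *Itih4*, an inter-alpha-trypsin inhibitor heavy chain, was at 825 ± 49.2 and 699.5 ± 39.4 CPM (0.24, adjusted p = 0.018). *Itih4* lost the call in 4 of the 6 fits that each left out 1 library: its adjusted p was 0.0558 and 0.0929 on leaving out C75S replicate 2 or 3, and 0.0908 and 0.105 on leaving out WT replicate 1 or 2. The most abundant of the list, the ferroxidase ceruloplasmin (*Cp*), had 4121 ± 271 CPM in C75S and 3999 ± 112 CPM in WT (log2 fold change 0.04, adjusted p = 0.824).

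The 10 negative acute phase genes, whose plasma products fall in inflammation, went both ways, with a median log2 fold change of -0.03. By edgeR 2 were called higher and 2 lower, against 1.74% and 1.37% of all tested genes. An unadjusted p-value under 0.05 was found for 5 of the 10, against 13.4% of all tested genes. *Ahsg*, which encodes fetuin-A, had 6788 ± 240 CPM in C75S, against 7887 ± 158 in WT (log2 fold change -0.22, adjusted p = 0.0341). *F12*, coagulation factor XII, was at 504 ± 41.2 and 588 ± 3.94 CPM (-0.22, adjusted p = 0.0254). With single libraries left out, *Ahsg* passed the test in 1 of 6 fits (without C75S replicate 3), and its adjusted p reached 0.215 without WT replicate 2. *F12* passed in 2 of 6, and reached 0.156 without C75S replicate 1. In the other direction, *Fetub*, fetuin-B, was at 108 ± 10.3 and 83.9 ± 2.64 CPM (0.37, adjusted p = 0.000552). *Serpina6*, corticosteroid-binding globulin, was low in all libraries, with 3.13 ± 0.82 CPM in C75S, against 0.82 ± 0.17 in WT (1.92, adjusted p = 0.00034). Albumin (*Alb*), the most abundant, was at 60607 ± 5471 and 67143 ± 3618 CPM (-0.15, adjusted p = 0.347).

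Of 21 genes of acute phase signalling, all tested, 0 were called by edgeR, DESeq2 or limma-voom, where edgeR called 3.11% of all tested genes. Of the 21, 2 had an unadjusted p-value under 0.05, against the 13.4% of all tested genes. The median log2 fold change was 0.04. *Il6st*, the shared signalling receptor gp130, was the most abundant, with 318 ± 7.58 CPM in C75S, against 345 ± 15.9 in WT (-0.12, adjusted p = 0.271). The other gene under 0.05 unadjusted was *Osmr*, the oncostatin M receptor, at 12.7 ± 1.88 and 9.44 ± 1.73 CPM (0.43, adjusted p = 0.114), named after its value was seen.

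Of 12 binding partners and receptors of the 10 proteins, 8 could be tested, with a median log2 fold change of -0.06. By edgeR 1 was called, as lower, against 1.37% of all tested genes. Unadjusted p-values under 0.05 were found for 3 of the 8, against 13.4% of all tested genes. All C75S libraries lay below all WT libraries for 3 and above for 1, against 8.96% and 9.02% of all tested genes. *Hmox1*, the enzyme that breaks down heme, had 269 ± 4.82 CPM in C75S, against 343 ± 36.5 in WT (log2 fold change -0.35, adjusted p = 0.000997), with all C75S libraries below all WT libraries. *Lrp1*, the endocytic receptor for heme bound to hemopexin, was the most abundant, at 532 ± 14.3 and 486 ± 15.3 CPM (0.13, adjusted p = 0.199). DESeq2 and limma-voom called 2 lower genes, with the fatty acid and SAA receptor *Cd36* added, for which edgeR gave -0.48 (adjusted p = 0.0659).

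**Figure D5:**
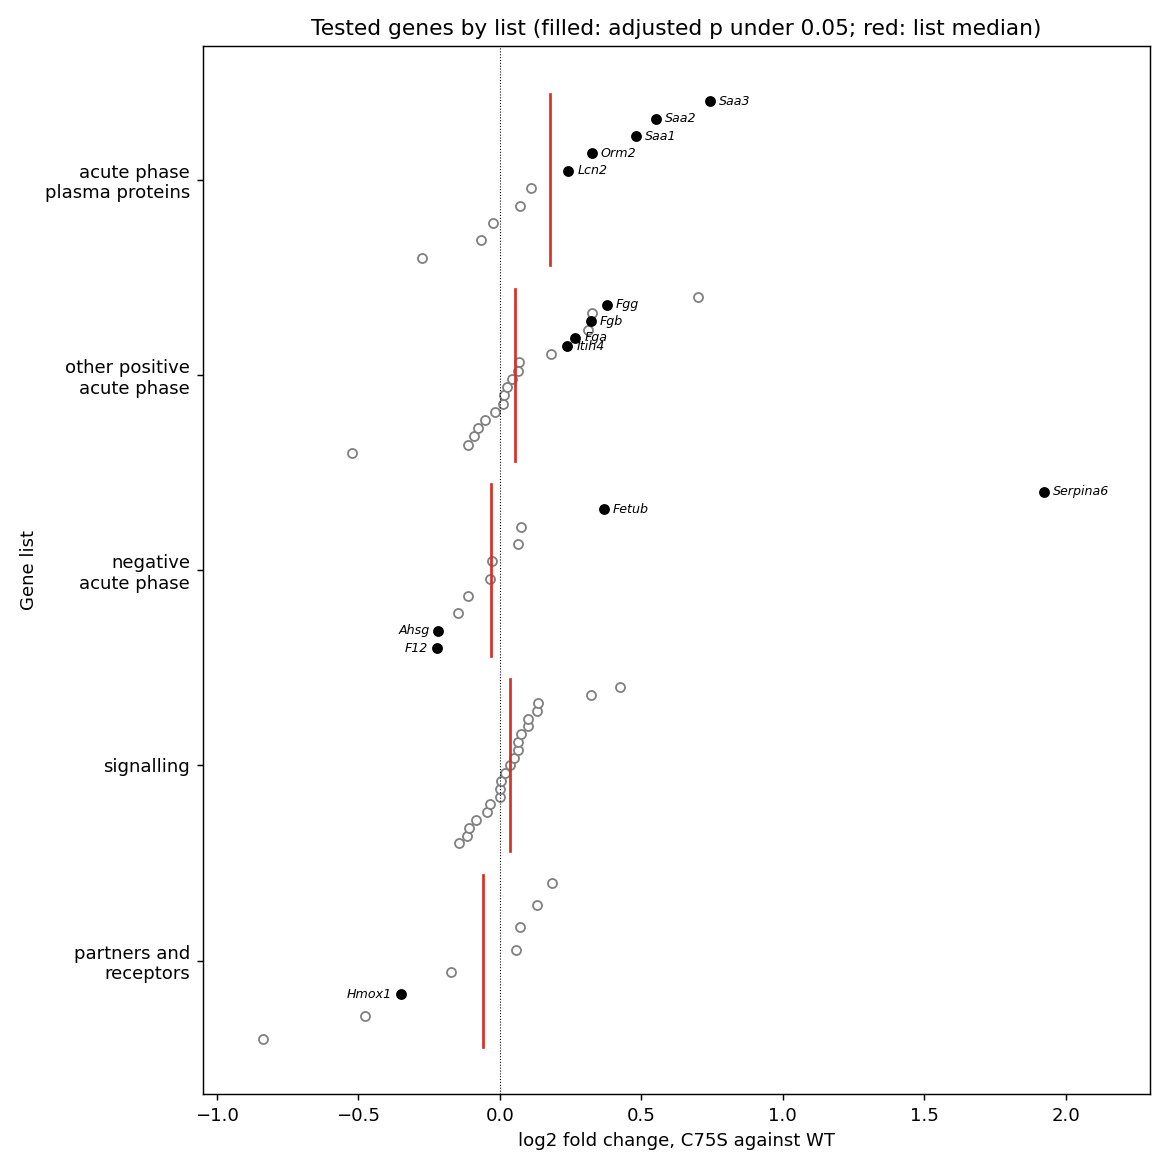
Log2 fold change of C75S against WT (horizontal axis) for every tested gene of the 10 acute phase plasma proteins and the other lists (vertical axis), with called genes filled and named and list medians in red. The medians lie between -0.06 and 0.18, and Serpina6 stands farthest out at 1.92.

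Genes with the most similar pattern were sought by Pearson correlation of log2 CPM over the 6 libraries, as a description. For *Saa1* these were *Plekhg2* (0.995), *H2-T-ps* (0.993) and *Mup14* (0.991), and for *Hp* they were *Dusp8* (0.986), *Fech* (0.982) and *Dennd1a* (0.982). The 6 points share genotype and library, and *Mup14* belongs to a family of near-identical copies, so its count is uncertain.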

How the data were processed

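Gene counts were analysed for 6 libraries, grouped by the sample titles. The authors deposited raw read counts for each Ensembl gene, laid out as STAR writes them, with an unstranded column and one for each strand, per the file headers. Trim Galore 0.6.6, STAR 2.7.9a, edgeR 3.36.0 and GRCm38 are named in the submitters' processing notes. The reverse-strand counts were used, as they summed to 32.9 to 33.9 times the forward-strand counts. The 4 summary rows were left out: multimapping reads were 17.98% to 18.54% of each file, unmapped 4.37% to 5.81%, reads on no feature 4.99% to 5.55% and ambiguous 0.89% to 0.93%. Of 55487 gene rows, 55141 matched GENCODE M21, the source of symbols, positions and transcripts. No annotated gene overlaps a member.

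Genes were filtered with filterByExpr (minimum count 10, minimum total 15), scaled by TMM and tested with edgeR 4.0.16 in R 4.3.3 by a robust quasi-likelihood fit, two-sided, with genotype as the single term. Standard errors are the change over the square root of F. The procedure was tested on simulated data. Alternatives were other scalings, filters and strand counting, DESeq2 1.42.0, limma-voom (limma 3.58.1), a replicate block and each library left out. Summing the orosomucoid genes was added after seeing the data. Copies were aligned with Biopython 1.88. The members and lists were chosen with earlier results of these data known. Named were all 10 members, up to 4 called genes per list and its most abundant gene, and the 3 genes of most similar pattern to *Saa1* and *Hp* with at least 5 CPM. Promoters come from RefSeq (GRCm38.p6), where 8 of the 10 members matched.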

Additional observations from a re-analysis of the deposited data

How the results depend on the processing

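Over the 16 alternative fits, *Saa1*, *Saa3*, *Orm2* and the sum of *Saa1* and *Saa2* kept their direction and their call. *Saa2* lost its call in 6 and *Lcn2* in 4, *Saa4* gained one in 3, and *Orm1*, *Hpx* and *Apcs* kept direction without a call. *Hp* changed sign without C75S replicate 1 (0.05) and without WT replicate 3 (0.002), within a range of -0.109 to 0.05 with single libraries left out. In the latter fits the genes called ranged from 201 (without WT replicate 2) to 355, against 396, with 246 without WT replicate 3 and 253 without C75S replicate 1. Members called in either direction ranged from 3 to 6, against 5. The median of other positive acute phase genes ranged from 0.003 (without C75S replicate 3) to 0.084. That of binding partners and receptors ranged from -0.189 to 0.00, and was 0.052 with no filter beyond 1 count and 0.056 with at least 10 counts in all libraries, where more and fewer genes entered it. Without that filter 573 genes were called, 290 higher and 283 lower, against 222 and 174; the cause was not tested. Whether equal replicate numbers pair the libraries is not stated in the labels. Correlations of deviations from the group means were 0.017, -0.04 and 0.025 for equal numbers and -0.044 to 0.024 for unequal ones. They cannot settle pairing, since the deviations of 3 libraries sum to 0 within each group. With the replicate block 480 genes and 4 members were called, *Saa2* being lost (adjusted p = 0.062), and the sum of *Saa1* and *Saa2* was at 0.497. Depth limits *Saa3* most, and with 3 libraries a group an exact permutation p cannot go below 0.1.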
